A study of Mus musculus with 44 samples.

Results

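The genes described here are 10 parts of the bone morphogenetic protein (BMP) pathway, chosen by name, out of 12707 gene symbols in the deposited table. They are the secreted factors Bmp4, Bmp5 and Gdf10, the protease Bmp1, the receptors Bmpr1a, Acvr1 and Bmpr2, the target genes Id1 and Id3, and the antagonist Fst. All 10 had a row in the table. Genes of the annotation that overlap Bmp4, Bmp5, Bmpr1a, Acvr1, Bmpr2 or Fst have no row in the table, and whether the authors' counting used strand is not given, so reads from both could be counted together. Their levels were read in 44 single cells from the hindlimb muscles of adult C57BL/6 mice of the genotype Prrx1-CreERT;Tomato. All 44 cells formed 1 group, and every mouse carried the same alleles and received tamoxifen, 2 mg per mouse on each of 3 days. In such mice tamoxifen activates a recombinase driven by Prrx1, a homeobox gene of limb mesenchyme, and recombined cells make a red fluorescent protein. Tomato-positive cells were sorted after enzymatic digestion of the muscle and were then picked singly under the microscope, so cells that did not survive digestion or did not recombine were not sampled. Since no animals are named, the 44 cells amount to a single sample without replicates, and every value below is a description of these cells with no p-value.

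BMPs are secreted dimers of the TGF-beta family that bind a complex of type I and type II receptor kinases on the cell surface. The active type I receptor phosphorylates Smad1 and Smad5, which join Smad4, enter the nucleus and switch on genes such as Id1 and Id3. Secreted antagonists bind the ligands before they reach the receptors. In skeletal muscle, connective tissue cells that express Pdgfra are a known source of BMPs, and BMP signals are known to act on muscle mass and on bone formation within muscle.

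The table holds log2 FPKM, an abundance adjusted for transcript length and library size, on a log scale. A log2 value of 1 (FPKM 1) and a log2 value of 5 (FPKM 31) are used below as a low and a high threshold. Each cell had exactly 4022 rows at the low and 1540 rows at the high threshold, so the values had been forced to a shared distribution, and a level is closer to a rank within its cell than to an amount of RNA. Sequencing depth is unknown. The libraries were also linked: 172 of 946 pairs of cells shared their low values, and the links arranged 42 cells into 6 blocks of 7, with 2 cells (30 and 44) in no block. Each of the 42 cells was also linked to 2 or 3 cells outside its block. A gene that was strong in only 1 cell stood at a log2 value of 1 or more in 35.99% of the cells linked to it and in 5.61% of the unlinked cells. A low value therefore does not show that a cell expressed the gene, and correlations over cells are given both as measured over 44 cells and after centring each value on its block over 42 cells. Centring on blocks does not remove values shared over links between blocks. The cells carried the connective tissue markers expected from the labelled tissue: of 10 measured markers such as Pdgfra, Ly6a and Col1a1, each cell held between 3 and 10 at the high threshold (median 8). None of 10 measured endothelial markers reached the high threshold in any cell, and their mean level lay between 0 and 0.63. Of 9 measured leukocyte markers a cell held at most 1. A total of 6 cells held at least 6 markers of another kind at the high threshold: mural markers in cells 30 and 36, tendon markers in cells 8, 17 and 40, and myofibre markers in cell 31.

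Id3 and Bmp4 were the most widely held of the 10 genes, and Acvr1, Fst and Bmpr1a were the least. At the low threshold, 5 of the 10 genes were present in at least 22 of the 44 cells: Id3 in 43, Bmp4 in 42, Bmp1 in 33, Gdf10 in 32 and Bmp5 in 23. Over all symbols, 25.4% met this rule. At the high threshold only Id3 met it, against 5.25% of all symbols. The median level was 7.73 for Id3 and 4.89 for Bmp4, above 98.2% and 94.7% of all symbols. The order then ran through Bmp1 (2.25), Gdf10 (1.84), Bmp5 (1.20), Bmpr1a (0.50), Fst (0.46) and Bmpr2 (0.43), and the medians of Acvr1 and Id1 were 0. Acvr1 varied little between its quartiles (0 and 0.0009). For Bmp4, Bmp1 and Gdf10 the spread over cells was wider than the steps between neighbours. Bmp4 had quartiles of 2.07 and 7.58, Bmp1 of 1.03 and 5.66, and Gdf10 of 0.98 and 4.48, and Bmpr2 had quartiles of 0.24 and 3.15. Levels from Bmp1 down to Bmpr2 thus overlapped, and among these genes the order of the medians is not separated from the spread of the cells.

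**Figure D1:**
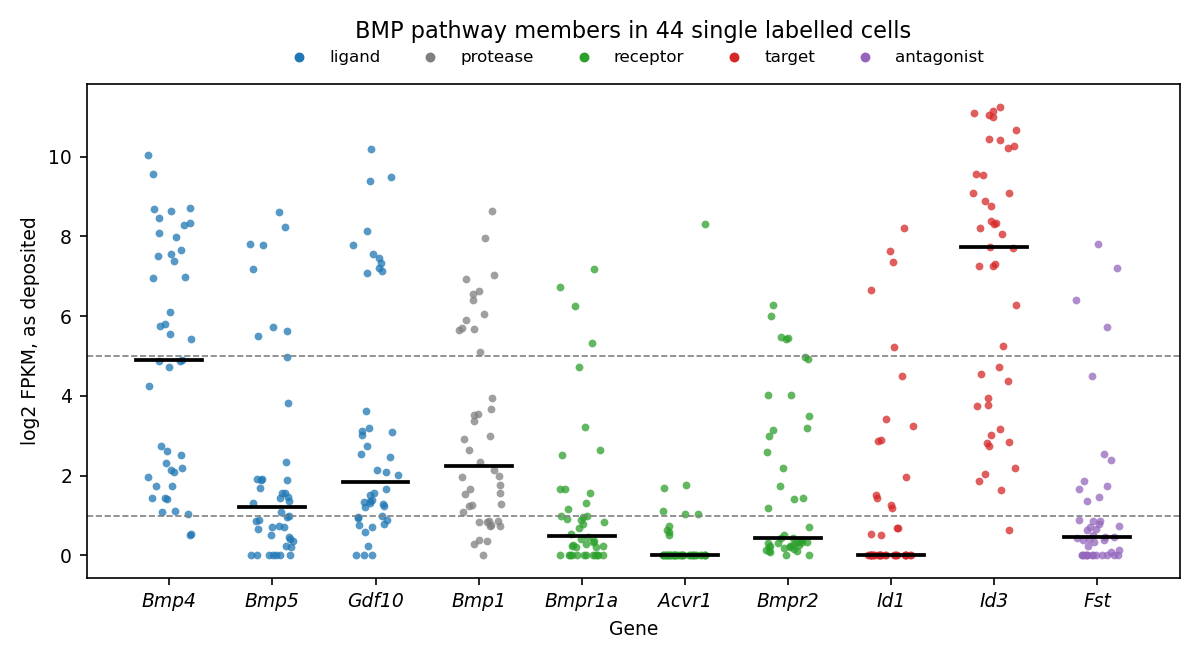
Each point is 1 of the 44 cells, plotted by its deposited log2 FPKM (y axis) for each of the 10 BMP genes (x axis), coloured by role. The black bar is the median and the dashed lines are the log2 values of 1 and 5; Gdf10 and Acvr1 show an empty interval between their high and low cells, while Id3 and Bmp4 fill the range.

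Bmp4, at 46383520 to 46390669 (minus strand), and Gdf10, at 33923587 to 33937983 (plus strand), lie on mouse chromosome 14, as do Bmp1 (70474558 to 70520234, minus strand) and Bmpr1a (34410734 to 34503341, minus strand), in GRCm38 with the GENCODE annotation. Bmp4 and Gdf10 were the 2 ligands held at the high threshold in the most cells, so the 250 bases before their transcription starts are printed here, from the RefSeq promoter table (GRCm38.p6). The windows are chr14:46390670-46390919 (minus strand) for Bmp4 and chr14:33923337-33923586 (plus strand) for Gdf10. Capitals mark GTCT or its reverse complement AGAC, the short motif that Smad proteins contact.

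Bmp4: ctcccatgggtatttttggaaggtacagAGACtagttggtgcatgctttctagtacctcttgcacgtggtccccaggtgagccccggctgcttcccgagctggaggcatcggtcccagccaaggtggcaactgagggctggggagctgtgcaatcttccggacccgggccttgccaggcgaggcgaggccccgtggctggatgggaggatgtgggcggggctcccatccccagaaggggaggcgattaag

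Gdf10: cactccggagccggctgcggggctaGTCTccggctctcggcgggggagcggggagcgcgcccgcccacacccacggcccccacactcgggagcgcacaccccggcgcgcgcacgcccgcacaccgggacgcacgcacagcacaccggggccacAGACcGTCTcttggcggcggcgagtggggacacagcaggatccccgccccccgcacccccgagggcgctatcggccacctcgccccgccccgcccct

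The Bmp4 window held 1 such match and the Gdf10 window 3, and 82.9% of all 32851 promoter windows of the same length held at least 1, so a match is common. GGCGCC, a GC-rich motif contacted by Smads of the BMP branch, was in neither window and was in 9.59% of all windows. CANNTG, the E-box to which the factors blocked by Id proteins bind, was found 3 times before Bmp4 and not before Gdf10, and in 66.2% of all windows. GGCGCC and CANNTG read the same on both strands, and GTCT was searched on both. The share of G and C was 63.2% for Bmp4 and 78.8% for Gdf10, against a median of 52.4% over all windows. A match is a run of letters only and was not tied to binding. Of the 10 genes, 7 matched the promoter table, and Id1, Fst and Bmp1 did not.

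Bmp4, a ligand that acts in limb and muscle development, was the ligand found in most cells. Its level ran from 0.50 through a median of 4.89 to 10.05, and 21 cells (47.7%, exact Clopper-Pearson 95% interval 32.5% to 63.3%, counting error only) reached the high threshold. The highest cells were cell 37 at 10.05, cell 17 at 9.57 and cell 4 at 8.72. High cells were found in all 6 blocks, with 5 of 7 cells in blocks 1 and 6, 4 in block 2 and 2 in each of blocks 3, 4 and 5. The lowest cell at the high threshold stood at 5.42 and the next below at 4.90, so the threshold cut through a continuous range. All 23 lower cells were linked to a high cell, so no unlinked low cell was there to compare them with. In 25 cells Bmp4 exceeded 5 times the signal expected from linked libraries, and at least 4 of these lay under the high threshold.

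Bmp5, the ligand whose loss gives short-eared mice, was high in few cells. It reached the high threshold in 8 cells (18.2%, interval 8.19% to 32.7%). The values were 8.61 in cell 19, 8.24 in cell 8, 7.81 in cell 18, 7.79 in cell 22, 7.19 in cell 42, 5.74 in cell 2, 5.63 in cell 41 and 5.49 in cell 11. The other 36 cells lay at 4.98 or below. All 15 cells between the low and the high threshold were linked to a high cell, while the 6 lower cells with no such link stood between 0 and 0.0013. Bmp5 was high in no cell of block 5.

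Gdf10, also called BMP3b, is a divergent member of the family, a close relative of Bmp3 and, in mice, a product of muscle mesenchymal cells that supports muscle mass. It split the cells into high and low with an empty interval. It stood between 7.08 and 10.19 in 11 cells (25%, interval 13.2% to 40.3%) and at 3.61 or below in the other 33, a gap of 3.47 with no cell in it. The highest values were 10.19 in cell 5, 9.48 in cell 34, 9.40 in cell 1 and 8.13 in cell 43. The remaining high cells were cell 6 at 7.78, cell 37 at 7.56, cell 33 at 7.47, cell 16 at 7.33, cell 44 at 7.21, cell 10 at 7.14 and cell 42 at 7.08. High cells came from 5 blocks and from cell 44, which is in no block, and block 4 held none. All 21 cells between the low and the high threshold were linked to a high cell; of the 33 lower cells, the 31 linked ones had a median of 1.36 and the 2 unlinked ones were at 0. At the low threshold 32 cells would be counted as holding Gdf10, against 12 when a value must also exceed 5 times the signal expected from linked libraries.

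The 3 ligands overlapped in part. At the high threshold 15 cells held none of Bmp4, Bmp5 and Gdf10, 19 held 1, 9 held 2 and only cell 42 held all 3, at 6.99, 7.19 and 7.08. Bmp4 and Bmp5 were both high in 6 cells, that is 6 of the 8 Bmp5-high and 6 of the 21 Bmp4-high cells, where 3.82 would follow from their separate counts. Bmp4 and Gdf10 were both high in 5 cells, where 5.25 would follow, and Bmp5 and Gdf10 in 1, where 2.0 would follow. Of the other 5 measured BMP ligands, Bmp2, a close relative of Bmp4, was high in 7 cells and at the low threshold in 22. Bmp3 was high in 3 cells, Bmp6 in 1, and Bmp8a and Gdf11 in none. With Bmp2 and Bmp6 counted beside Bmp4, Bmp5 and Gdf10, 33 cells held a ligand at the high threshold. Bmp7 and the other 8 ligands of the list without a row are not analysed here.

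Bmp1 carries the family's name but is a metalloprotease, which trims procollagens and cleaves the BMP antagonist chordin. It was high in 13 cells (29.5%, interval 16.8% to 45.2%), with cell 14 at 8.64, cell 41 at 7.97 and cell 28 at 7.02 the highest and cell 33 at 5.10 the lowest of them. The next cell below stood at 3.95. Its partners were high in more cells: Pcolce and Pcolce2, which enhance procollagen cleavage, were high in 42 and 33 cells, with medians of 9.97 and 7.47 and quartiles of 9.10 and 10.67 for Pcolce and 5.14 and 9.05 for Pcolce2. The related protease Tll1 was high in 2 cells. All 10 measured substrates of Bmp1, such as Col1a1, Col3a1, Bgn and Fn1, were present at the low threshold in at least 22 cells, and 8 of them at the high threshold. Across cells the Bmp1 level had a Spearman rho of -0.01 with the mean level of these substrates (-0.11 after centring).

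The 3 receptor members were high in 1 to 5 cells, where each cell had 1540 of all 12745 rows at the high threshold. The medians of Bmpr1a and Bmpr2 lay above 64.9% and 62.5% of all symbols, and that of Acvr1 was 0. Bmpr1a and Bmpr2 were both high in 1 cell, where 0.45 would follow from the separate counts. Acvr1 was high with neither, where 0.09 and 0.11 would follow. Bmpr1a, the main type I receptor for Bmp2 and Bmp4, was high in 4 cells (9.09%, interval 2.53% to 21.7%): 7.18 in cell 38, 6.72 in cell 9, 6.26 in cell 17 and 5.32 in cell 30. Acvr1, the type I receptor mutated in human fibrodysplasia ossificans progressiva, was high in cell 2 alone, at 8.30. The other 43 cells lay at 1.76 or below, and the 8 cells linked to cell 2 stood between 0.50 and 1.70 (median 0.88) while the 35 unlinked cells had a median of 0. Bmpr2, the type II receptor mutated in human pulmonary arterial hypertension, was high in 5 cells: 6.27 in cell 27, 6.01 in cell 7, 5.47 in cell 33, 5.45 in cell 40 and 5.44 in cell 17. The highest receptor level, that of Acvr1 in cell 2, thus lay under the highest levels of Bmp4, Gdf10 and Id3. Of the Bmpr1a cells, cell 17 carried 7 of 8 tendon markers and cell 30 carried 8 of 11 mural markers, and of the Bmpr2 cells, cells 17 and 40 carried 7 and 6 tendon markers. Without the 6 cells that hold such markers, 2 of 38 cells were high for Bmpr1a and 3 for Bmpr2, and the part of these cell kinds in the receptor counts was not tested.

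Receptors outside the 10 genes were high in at most 8 cells, where each cell had 1540 of all 12745 rows at the high threshold. Acvr2a, a type II receptor shared with activins, was high in 8 cells and Acvrl1, a type I receptor best known from endothelium, in 6. Their medians lay above 79.3% and 73.0% of all symbols. Acvr2b reached at most 0.0013 and Acvr1b, an activin receptor, at most 0.27. At the high threshold, 10 cells held a type I receptor (Bmpr1a, Acvr1 or Acvrl1), 13 held a type II receptor (Bmpr2, Acvr2a or Acvr2b), and 3 cells (17, 30 and 34) held both. At the low threshold both were found in 26 cells, and in 17 when values had also to exceed the signal of linked libraries. These counts depend on the threshold, and a gene with few transcripts can be missed in a single cell, so they do not show that a cell lacked receptors. Of the co-receptors, Tgfbr3, which presents TGF-beta family ligands, was high in 25 cells and reached 9.33, and Eng was high in 11 and reached 10.44, both above the highest receptor level. Rgmb was high in 10 cells, and Rgma and Neo1 in 3 each, with highest levels of 7.33, 6.74 and 6.37.

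The intracellular Smads were high in few cells. Smad1 was high in no cell and at the low threshold in 5, Smad5 was high in 2 cells (10 and 28), and Smad4 was high in cell 43. At the low threshold Smad5 stood in 14 cells and Smad4 in 9, where each cell had 4022 of all 12745 rows. The median of Smad5 (0.33) lay above 58.8% of all symbols, and those of Smad1 and Smad4 were 0. Since Smad4 was high in none of the Smad5-high cells, no cell could hold both receptor types, Smad1 or Smad5, and Smad4 at the high threshold. At the low threshold 1 cell did, and these counts do not show whether receptors and Smads occur together. Among the inhibitors inside the cell, the co-repressor Ski was high in 22 cells, the ubiquitin ligases Smurf2 and Smurf1 in 8 and 6, Skil in 4, Smad7 in 2, Smad6 in 1, and the decoy receptor Bambi in none.

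**Figure D2:**
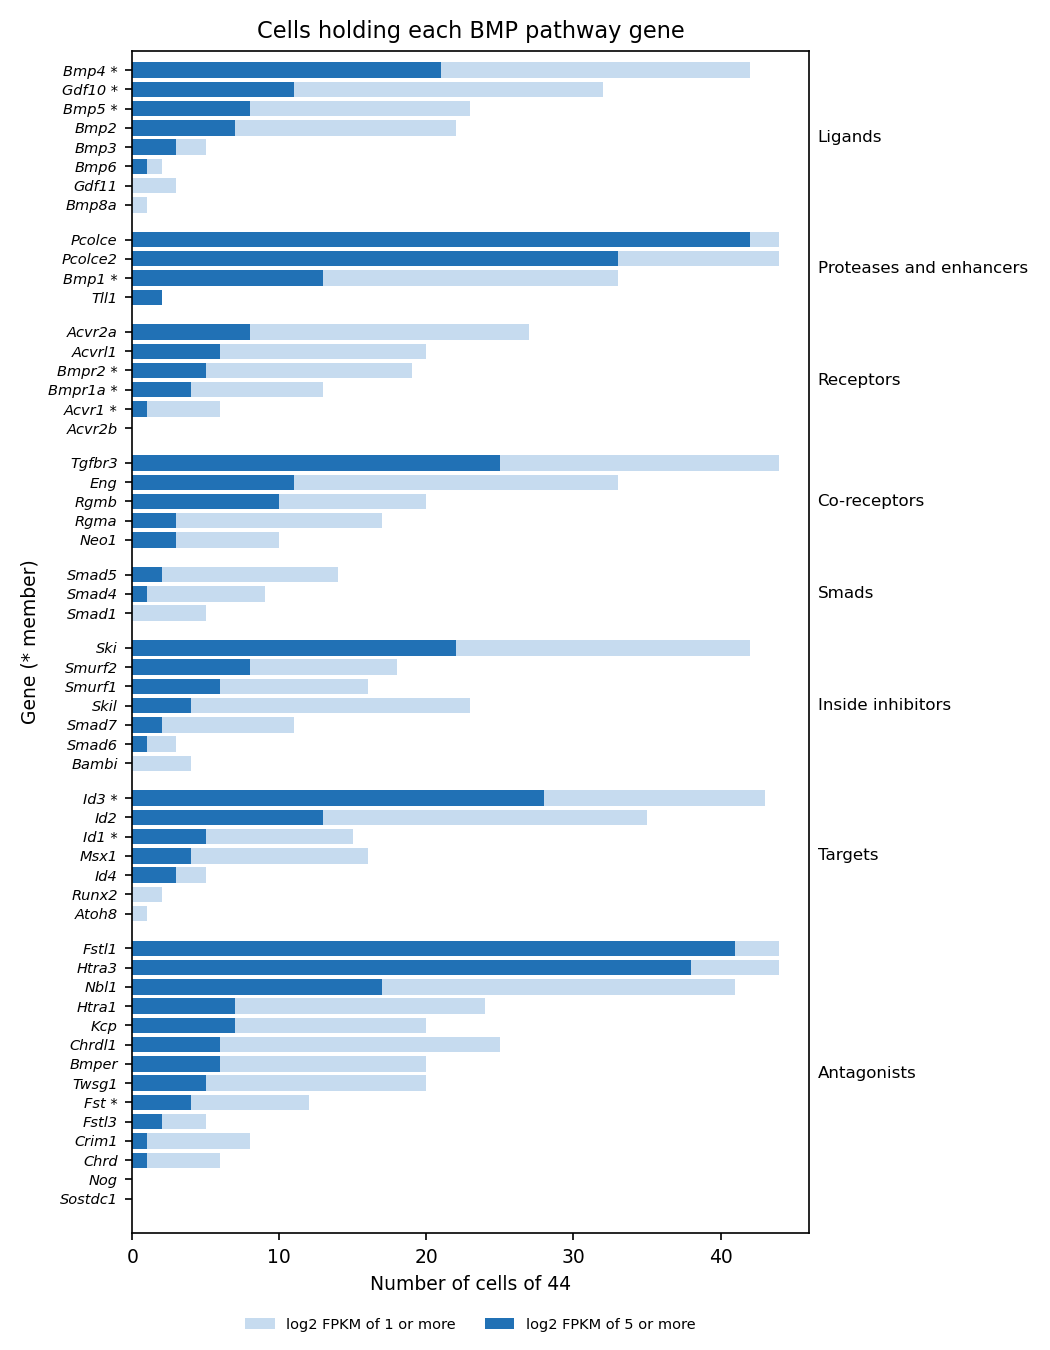
Bars give the number of cells, of 44, in which BMP pathway genes stood at a log2 value of 1 or more (light) or 5 or more (dark), with genes grouped by role and the members starred. Matrix-related genes such as Pcolce, Fstl1 and Htra3 reached the high threshold in 38 to 42 cells, whereas no receptor of the type I or type II class did so in more than 8.

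Id3 and Id1 encode helix-loop-helix proteins without a DNA-binding part, which block basic helix-loop-helix factors by pairing with E proteins. Id3 was the strongest of the 10 genes. It ran from 0.65 through a median of 7.73 to 11.26, was high in 28 cells (63.6%, interval 47.8% to 77.6%), and was highest in cell 40 at 11.26, cell 4 at 11.15 and cell 10 at 11.09. It was high in all 7 cells of block 6, in 6 of block 2, in 4 of each of blocks 1, 3 and 5, and in 2 of block 4. The 16 lower cells were all linked to a high cell.

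Id1 behaved otherwise: it stood at the lowest value of the cell in 25 cells and was high in 5 (11.4%, interval 3.79% to 24.6%). In cells 42, 39, 40, 12 and 24 the Id1 level was 8.22, 7.64, 7.35, 6.65 and 5.22, and the Id3 level in the same cells was 6.27, 7.26, 11.26, 10.23 and 3.03. Id3 was thus high in 4 of the 5, where 3.18 would follow from the separate counts. Over 44 cells Id1 and Id3 had a rho of 0.20 and a Pearson r of 0.16, and after centring the rho was 0.01. The 3 cells 39, 40 and 42 belong to block 6, in which Id3 was high in every cell.

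Id2, a close relative, was high in 13 cells with a median of 2.09. Its rho was 0.45 with Id1 (r 0.43; 0.36 after centring) and 0.16 with Id3 (-0.12 after centring). Id4 was high in 3 cells and Msx1, a homeobox target of BMP signalling in the limb, in 4. Runx2 and Atoh8 reached the high threshold in none. The E protein Tcf4, a partner of Id proteins, was high in 31 cells with a median of 7.21, and its level had a rho of 0.03 with Id3. Tcf12 was high in 6 cells and Tcf3 in 2.

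At the high threshold, 35 of the 44 cells held none of Bmpr1a, Acvr1 and Bmpr2. Id3 was high in 20 of these 35, beside 28 of all 44 cells. Id3 was also high in 3 of the 4 Bmpr1a-high cells, in the 1 Acvr1-high cell and in all 5 Bmpr2-high cells. From the separate counts 2.55, 0.64 and 3.18 would follow. With Acvrl1, Acvr2a and Acvr2b counted too, 33 cells held a ligand, 10 a type I receptor and 13 a type II receptor at the high threshold. A ligand with neither receptor type was found in 17 cells. The number that would follow from the separate counts was not computed, so the 17 cells do not show a lack of matching receptors. Bmpr1a and Id3 had a rho of 0.32 (r 0.18; 0.11 after centring), and Bmpr2 and Id3 one of 0.21 (0.07 after centring).

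Fst encodes follistatin, which binds activins tightly and several BMPs less so. It was high in 4 cells (9.09%): 7.82 in cell 30, 7.22 in cell 5, 6.40 in cell 18 and 5.74 in cell 22. Id3 stood at 10.26, 3.76, 3.18 and 2.81 in these cells, below the high threshold in 3 of the 4. Both genes were thus high in 1 cell, where 2.55 would follow from the separate counts. Over 44 cells Fst and Id3 had the lowest rho of the 45 pairs, at -0.33 (r -0.24; -0.35 after centring). Cell 30 held 8 of 11 mural markers at the high threshold, cells 5 and 18 held 3 each and cell 22 held 0, and their part in this pair was not tested.

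Several other antagonists were high in more cells than Fst, while some of the best known were listed near 0. Noggin (Nog) and Sostdc1 reached at most 0.0013, and 0 of 44 cells allows a share of up to 6.82% of cells at the threshold when 0 is set to 3 cells (8.04% as the upper Clopper-Pearson 95% bound), counting error only. Over all 12707 symbols, 1355 reached the low threshold in no cell, beside 4 of the 48 measured pathway genes outside the 10. Chordin (Chrd) was high in 1 cell. The secreted glycoprotein Fstl1 was high in 41 cells with a median of 9.03, the secreted protease Htra3 in 38 with a median of 8.95, and Nbl1 in 17. Chordin-like 1 (Chrdl1), which binds Bmp4, was high in 6 cells and reached 9.98. Bmper was high in 6 cells, Htra1 and Kcp in 7 each and Twsg1 in 5. Of 48 measured pathway genes outside the 10, out of 68 listed, 14 stood at the low threshold in at least 22 cells and 6 at the high one, against 25.4% and 5.25% of all symbols. The median of their median levels was 0.31, beside 0.85 for the 10 genes and 0.15 for all symbols.

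**Figure D3:**
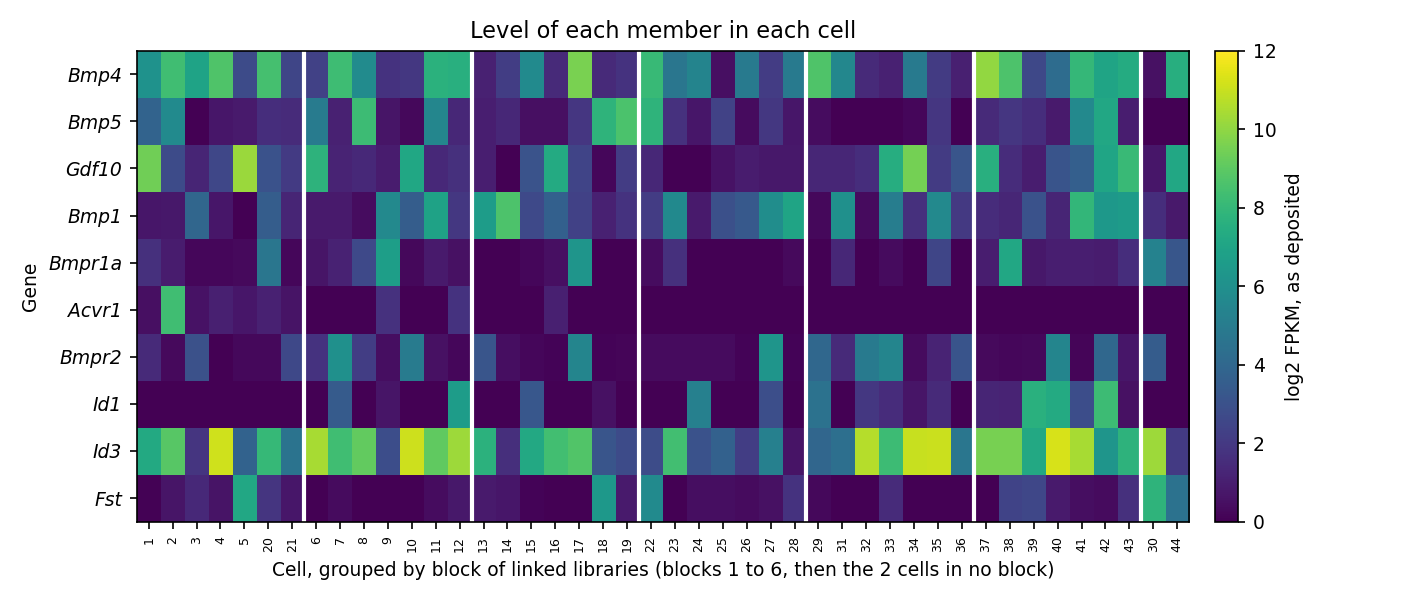
Rows are the 10 BMP genes, columns the 44 cells ordered by block of linked libraries, and colour is the deposited log2 FPKM. Single bright cells stand in rows such as Acvr1 (cell 2) and Fst, Id3 is bright in all 7 cells of block 6, and block 4 holds no bright Gdf10 cell.

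Across cells the correlations among the 10 genes were weak. The 45 pairs had a median rho of 0.04, with a range from -0.33 to 0.41, and of -0.01 after centring, beside a median of 0.001 over all 5208378 pairs of rows present in at least 22 cells. An absolute rho of 0.4 or more was reached by 1 pair, Gdf10 with Id3, and by none after centring. Over all pairs of rows present in at least 22 cells the share was 1.30% (1.52% after centring). The 10 pairs among the 5 members that also met this limit had a median rho of 0.03 (-0.02 after centring), and 1 of them, the same pair, reached 0.4. Points of these correlations share libraries, the forced distribution and their low values. Gdf10 and Id3 had a rho of 0.41, an r of 0.27 and a rho of 0.27 after centring, and both were high in 9 cells, where 7.0 would follow from the separate counts. Without block 4, where Gdf10 was high in no cell and Id3 in 2, the rho was 0.26, and without the 2 cells farthest from the Gdf10 median it was 0.42. Bmp4 and Bmpr1a had a rho of 0.39, an r of 0.23 and a rho of 0.23 after centring.

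**Figure D4:**
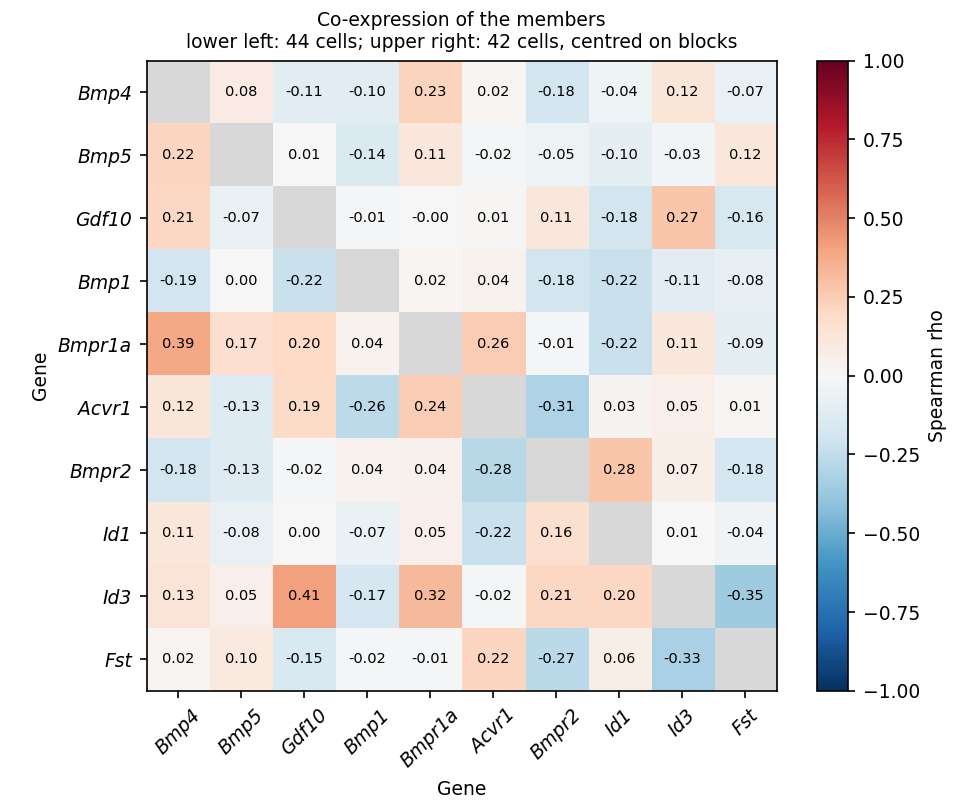
Each square gives the Spearman rho of a pair of BMP genes over 44 cells (lower left) or over 42 cells after centring on blocks (upper right), on a colour scale from -1 to 1. The values lie between -0.33 and 0.41 on the lower left, and the Gdf10 and Id3 square is the only one at 0.4 or more.

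The number of the 10 genes per cell varied widely. At the high threshold a cell held between 0 and 6 of them, with a median of 2. Cells 21, 25, 26 and 36 held none, and cell 42 held 6: Bmp4, Bmp5, Gdf10, Bmp1, Id1 and Id3.

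The Gdf10 level tended to be lower where the mean level of markers of 1 known kind of connective tissue cell was higher. Dpp4 and Pi16 mark a kind of fibroblast that lies in the outer connective tissue, and Cxcl14, Apod and Lum are among the markers of another. The mean level of 11 genes of the Dpp4 kind had a rho of -0.54 with Gdf10 (r -0.41; -0.47 after centring), and all 11 genes had a negative rho both ways. Among them were Dpp4 at -0.63 (r -0.48; -0.47 after centring), Pi16 at -0.50 (-0.45 after centring) and Cd55 at -0.45 (-0.57 after centring). Dpp4 was high in 15 cells and Gdf10 in 11, and both were high in 2 (cells 37 and 44), where 3.75 would follow from the separate counts. Pcolce2, Efemp1 and Scara5 of the same list were high in 9, 8 and 9 of the 11 Gdf10-high cells. For these genes 8.25, 7 and 7.25 would follow, so they did not share the low count. The remaining genes of the list lay below the count that would follow, such as Pi16 (3, beside 6.25) and Cd55 (2, beside 5). The 11 genes of the Cxcl14 kind ran the other way, with a rho of 0.41 for their mean level (r 0.36; 0.33 after centring) and a positive rho for all 11 genes both ways. At the high threshold Apod was found in 10 of the 11 Gdf10-high cells, beside 9.75, Inmt in 11, beside 9.5, and Lum in 10, beside 8. Cxcl14 itself was found in 1, beside 1.75, and was the only gene of its list below the count that would follow.

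The gene with the highest rho to Gdf10 among 3227 rows was Btg2, an early-response gene that restrains proliferation, at 0.62 (0.60 after centring). Steap4 (0.52; 0.34 after centring) and Clec1a (0.51; 0.38) were also among the 5 highest. A rho of 0.5 or more was reached by 6 rows, or 0.186%. Btg2 was high in 17 of the 44 cells. Among the 11 Gdf10-high cells it was high in 9, all but cell 16 at 0.79 and cell 44 at 2.00. Since Btg2 was picked by its rho in these same cells, this count adds no separate evidence. With the mean of 18 immediate early genes, among them Btg2, Gdf10 had a rho of 0.20 (r 0.13; 0.11 after centring). Of the 14 other pathway genes present in at least 22 cells, 6 had a positive and 8 a negative rho with Gdf10. Their median was -0.12, with a range from -0.40 to 0.42, and after centring 8 were positive and 6 negative (median 0.04). The highest of the 14 was Chrdl1, with a rho of 0.42 (r 0.51; 0.50 after centring). Chrdl1 was high in 6 cells, of which 5 (cells 5, 16, 33, 37 and 43) were high for Gdf10, where 1.5 would follow from the separate counts. The sixth, cell 17, carried 7 of 8 tendon markers and had Chrdl1 at 9.98 and Gdf10 at 2.46. Acvr2a was high in 4 of the 11 Gdf10-high cells, where 2.0 would follow, with a rho of 0.31 (0.38 after centring).

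Id3 had the same signs with both lists, and its level was higher in cells with more early-response transcripts. Its rho was -0.51 with the mean of the Dpp4 kind (r -0.53; -0.28 after centring) and 0.48 with that of the Cxcl14 kind (r 0.50; 0.31 after centring). With the mean of 18 immediate early genes, which are known to be induced when tissue is dissociated, the rho was 0.57 (r 0.55; 0.44 after centring). Of the 17 such genes present in at least 22 cells, 16 had a positive rho with Id3, also after centring. The 5 genes nearest to Id3 were Fos (0.60; 0.34 after centring), Apod (0.57; 0.44), Gas1 (0.55; 0.26), Slc44a2 (0.53; 0.35) and Ier3 (0.52; 0.42), of which Fos and Ier3 are in the immediate early list and Apod in the Cxcl14 list. A rho of 0.5 or more with Id3 was reached by 8 rows, or 0.248%. The part of digestion and handling in the Id3 level was not tested.

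**Figure D5:**
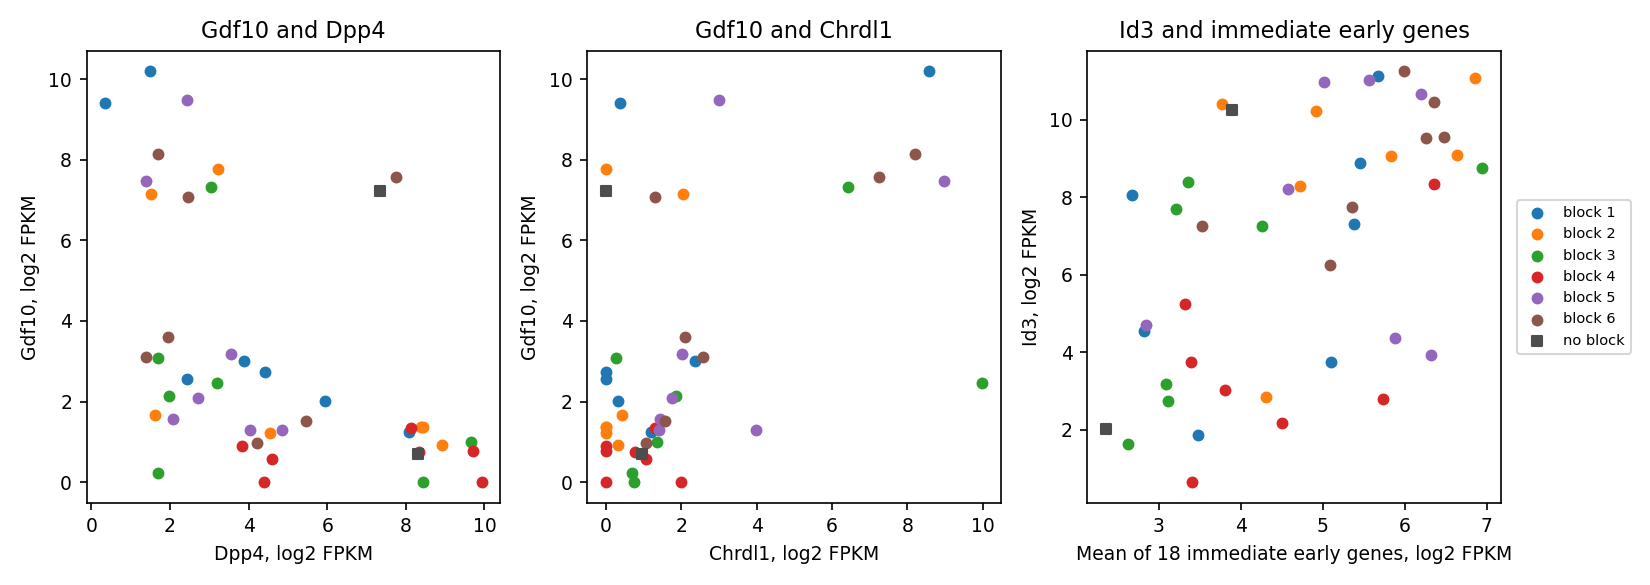
Each point is a cell coloured by block of linked libraries (squares: the 2 cells in no block), with log2 FPKM on both axes: Gdf10 against Dpp4 (left), Gdf10 against Chrdl1 (middle) and Id3 against the mean of 18 immediate early genes (right). Of the 11 Gdf10-high cells, 9 lie at a Dpp4 value under 5 and 5 lie at a Chrdl1 value above 5.

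The level of Bmp4 was likewise correlated with the early-response genes, at a rho of 0.47 with their mean (r 0.47; 0.50 after centring) and a positive rho for 16 of 17 genes (17 of 17 after centring). Its nearest genes were Pdzd11 (0.54; 0.51 after centring), G0s2 (0.52; 0.35), the immediate early gene Ier2 (0.52; 0.50), Cbx5 (0.51; 0.42) and the chemokine Ccl11 (0.51; 0.43), and these 5 were all of the rows at 0.5 or more (0.155%). With the mean of the Cxcl14 kind Bmp4 had a rho of 0.38 (r 0.39, and 0.44 after centring), beside 0.41 for Gdf10 and 0.48 for Id3. The rho of Bmp4 with the mean of the Dpp4 kind was -0.11, closer to 0 than those of Gdf10 and Id3, and a test of that difference was not possible in 1 sample. Of the 11 Dpp4 genes, 10 had a negative rho with Bmp4 (9 after centring). Bmp1 had the opposite sign, with a rho of 0.27 with the mean of the Dpp4 kind (0.27 after centring) and a positive rho for all 11 genes, among them Pi16 at 0.37 (0.45 after centring). The genes nearest to Bmp1 were Map2k3 (0.51; 0.38 after centring), Ivd (0.49; 0.38), Medag (0.47; 0.47), Stag2 (0.45; 0.57) and Psen2 (0.45; 0.42), and 1 row (0.031%) reached 0.5. Those nearest to Bmp5 were Cdc5l (0.53; 0.25 after centring), Zbtb38 (0.52; 0.20), Vps4a (0.49; 0.35), Rbm4b (0.48; 0.46) and Scd1 (0.47; 0.28), and 2 rows (0.062%) reached 0.5. For Bmp5, 4 of the 5 values were lower by over 0.1 after centring, which also leaves out cells 30 and 44. Leaving out the 6 cells with mural, tendon or myofibre markers gave a rho of -0.61 for Gdf10 with Dpp4, 0.42 for Gdf10 with Chrdl1 and 0.60 for Id3 with the immediate early genes, over 38 cells.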

How the data were processed

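Single cells from the hindlimb muscles of tamoxifen-treated Prrx1-CreERT;Tomato mice were sequenced from Nextera XT libraries, and 44 cells were analysed as 1 group. The authors deposited log2 FPKM values. TopHat2, Cufflinks and GRCm38 are named, without versions, per the submitters' processing notes. The base of the logarithm and the step that gave all cells a shared distribution are not given in the sources used here. Base 2 was inferred: 2 to the power of a value, minus 1, summed to between 579623 and 579912 per cell, where base e would give at least 1.5771e+07. Sorted values differed between cells by at most 0.0876 over the highest 4000 ranks. The highest row mean was kept for a repeated symbol. No value column was left unused (0), and doublets were not called.

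The 10 genes, the other pathway list, the marker lists and the thresholds were chosen with earlier results of these data known. Named genes were all 10 members, the pathway list by role, and the 5 rows with the highest Spearman rho for each member present in at least 22 cells. Some genes that this rule names are not reported here. Libraries were called linked where the rank correlation of their values, taken on alternate rows, exceeded 0.541 (Otsu's method), and carried signal was measured on 377 other rows, at a median ratio of 0.278% of the source cell. The steps were tested on simulated data. Python 3.11.15, numpy 2.4.6, pandas 2.3.3, SciPy 1.17.1 and networkx 3.6.1 were used. Clopper-Pearson 95% intervals cover counting error over cells only. Alternatives were other thresholds, leaving out blocks, centring on blocks, Pearson correlation, a pseudocount of 0.1, setting values under 5 to 5, and, added after the data were seen, leaving out 6 cells with markers of other cell kinds.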

Additional observations from a re-analysis of the deposited data

How the results depend on the processing

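The number of BMP genes present in at least 22 cells depended on the threshold. It was 5 of 10 at a log2 value of 1, and it was 8 for values above the lowest of the cell, 2 from FPKM 10 up, 1 for log2 values of 5 or more and 3 for values over 5 times the signal of linked libraries. Under the same thresholds the other pathway genes numbered 30, 7, 6 and 7, against 14. Leaving out 1 block at a time, with the limit scaled to the remaining cells, gave 4 to 5 BMP genes and 11 to 17 pathway genes. The rho of Id1 with Id3 was 0.20, and it was 0.00635 after centring and 0.0760 with values under 5 set to 5. It lay between 0.106 and 0.298 with 1 block left out. With 1 block left out, the median level of the 10 genes lay between 0.71 and 1.06 and the median rho of the 45 pairs between 0.00326 and 0.0673. That median was 0.0359 as reported, 0.0682 without the 2 farthest cells, and below 0 by Pearson correlation (-0.0263), after centring (-0.0147) and with values under 5 set to 5 (-0.0482), so its sign was not stable. Of the comparisons of these 5 summaries with an alternative, 48 stayed within 1.5 times the count, 1 SD or a rho of 0.1. The remaining 10 moved further. Of the comparisons for single genes and pairs, 182 stayed within their limits and 44 moved, and the causes were not tested. Without the 6 cells with markers of other kinds, 5 BMP genes and 14 pathway genes were present. No paired analysis was possible because the cells form 1 group. Depth is unknown, which limits every statement on a gene listed low.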
